A study of Homo sapiens with 12 samples.

Results

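The genes described here are PCLO, CBLN2, NEGR1, TENM3, RELN, DPYSL3 and ELMOD1, a set of 7 genes best known from synapses and from the guidance and adhesion of neurons, out of the 19775 gene symbols on the array. They were taken as all probe sets annotated with one of these symbols alone, 17 probe sets in all. The genes were picked with their values on these arrays in view, in every comparison made here, so their levels and differences are given as a description with no test. The cells were HK-2, an immortalised line of human proximal tubule epithelium, grown in a defined DMEM and Ham's F12 medium with EGF, hydrocortisone, insulin, transferrin and selenite. Cells near confluence were exposed for 24 h or 48 h to Nnm, the labels' name for the agent, at a dose they call low, or to vehicle alone. The labels give neither the amount of Nnm nor the name of the vehicle. Each of the 4 combinations of treatment and time had 3 arrays, labelled as biological replicates of the same line, and the series asks for expression signs of kidney toxicity. Values are log2 expression values, and a difference of 1 is a doubling. A single line under a single dose limits the samples as a model of the tubule.

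At a synapse, scaffold proteins such as piccolo organise the vesicle release site, and secreted or membrane-bound adhesion proteins hold the facing membranes together. Cerebellins bind neurexins, teneurins bind latrophilins, and IgLON proteins pair with each other. Reelin is a secreted matrix glycoprotein that acts through the receptors VLDLR and LRP8 on migrating neurons, and the collapsin response mediators, among them the product of DPYSL3, act on the cytoskeleton of the growth cone.

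The 12 arrays had between 40.4% and 40.8% of their probe sets above a log2 value of 4, the level used below as a filter, and their number limits the precision. The Nnm arrays of replicate 2 stood apart. Their median absolute difference from the control array of the same number, over all tested genes, was 0.193 at 24 h and 0.184 at 48 h, against 0.307 to 0.374 for replicates 1 and 3. RNA quality was read from ACTB, whose 5′ probe set minus its 3′ probe set gave -1.09 to -1.17 on the arrays numbered 2, control and Nnm alike, against -0.736 to -0.863 elsewhere. The part of RNA quality in the results was not tested. All 6 epithelial markers (keratins and adhesion genes) passed the filter (above 4 on at least 3 arrays), but of 16 proximal tubule markers only SLC3A1, DPP4, PAX8 and CDH6 did. CUBN, LRP2 and AQP1, which define the proximal tubule in the kidney, stayed at or below 2.11, 2.60 and 2.45 on every array. Of 20 neuronal markers 12 passed the filter. The brightest were TUBB3 at 11.6 to 13.3, INA at 8.95 to 10.7, NEFH at 8.60 to 10.8 and SYT1 at 9.05 to 10.1. The weakest were ELAVL3 at 4.27 to 5.72 and CHGB at 2.97 to 5.50. Among the other 8, RBFOX3, DCX, STMN2, GAP43, CHGA, SYP and ELAVL4 stayed at or below 3.20 on every array, and MAPT ran from 3.28 to 4.29.

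PCLO, TENM3, NEGR1 and ELMOD1 were higher with Nnm at both times and CBLN2 was lower at both. DPYSL3 was lower with Nnm at 24 h and near the control level at 48 h, and RELN was lower with Nnm mainly at 48 h. At 24 h all 3 Nnm values lay above all 3 control values for 4 of the 7 genes and below them for the other 3. Over all 10907 tested genes 21.1% lay above and 18.7% below, 39.8% together. At 48 h the Nnm values lay above for the same 4 genes, below for CBLN2 and RELN, and overlapped for DPYSL3. Of all genes 20.3% lay above and 15.8% below at that time, 36.1% together. Between the control groups, the 48 h values lay above those of 24 h for PCLO, NEGR1 and RELN and below them for CBLN2 and DPYSL3, where 12.1% of all genes lay above and 14.2% below, 26.3% together. The choice of the genes fixes these counts, and nothing is read from them. RELN passed the filter through its 3 control 48 h arrays alone and NEGR1 through 5 Nnm arrays alone, so these genes had to differ between those arrays and the rest.

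**Figure D1:**
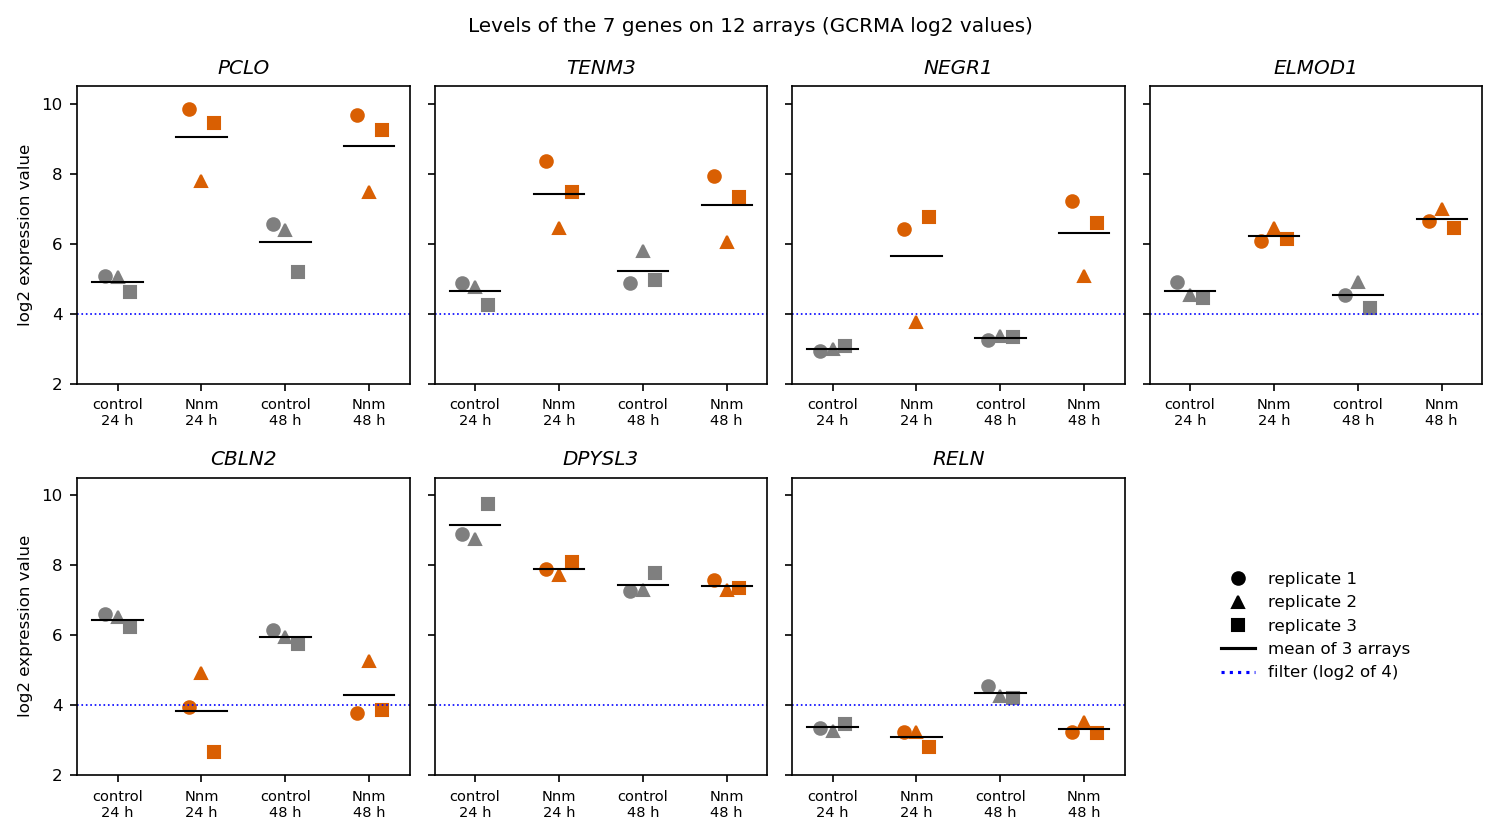
Levels of the 7 genes on each array, 1 panel per gene. The horizontal axis gives the group, the vertical axis the log2 expression value, symbols mark the replicate number, black lines the mean of 3 arrays and the dotted line the filter at 4. PCLO, TENM3, NEGR1 and ELMOD1 sit higher with Nnm, CBLN2 sits lower, DPYSL3 is highest in the control 24 h arrays and RELN passes 4 in the control 48 h arrays alone.

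PCLO encodes piccolo, a very large scaffold of the presynaptic active zone that tethers synaptic vesicles to the release site. At 24 h it had the largest difference of the 7 genes, and at 48 h the second after NEGR1. In the control 24 h arrays PCLO read 5.07, 5.03 and 4.62 for replicates 1, 2 and 3, and in the Nnm 24 h arrays 9.85, 7.79 and 9.45. In the control 48 h arrays it read 6.56, 6.39 and 5.20, and with Nnm at 48 h it read 9.66, 7.47 and 9.24. Every Nnm value lay above every control value of its time, and the lowest Nnm array was replicate 2 at both times. The means went from 4.91 ± 0.25 to 9.03 ± 1.09 (SD, n = 3) at 24 h and from 6.05 ± 0.74 to 8.79 ± 1.17 at 48 h. These are differences of 4.12 and 2.74, or 17.4-fold and 6.67-fold. Without Nnm replicate 2 they were 4.74 and 3.40. The smaller difference at 48 h went with a higher control level. The control 48 h mean was 1.15 above that of 24 h with no overlap, while the Nnm 48 h mean was 0.24 below that of Nnm 24 h, within the spread of those arrays.

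TENM3 encodes teneurin-3, a transmembrane adhesion protein that matches partner neurons and binds latrophilins across the synapse. Its control 24 h values were 4.88, 4.76 and 4.24 and its Nnm 24 h values were 8.35, 6.43 and 7.48. The control 48 h values were 4.86, 5.79 and 4.97, and the Nnm 48 h values were 7.92, 6.03 and 7.32. Nnm and control did not overlap at either time, but at 48 h the lowest Nnm array (replicate 2) was only just above the highest control array, also replicate 2. At 24 h the means were 4.63 ± 0.34 and 7.42 ± 0.96, a difference of 2.79 (6.91-fold). At 48 h the means were 5.21 ± 0.51 and 7.09 ± 0.97, a difference of 1.88 (3.68-fold), and without Nnm replicate 2 the differences were 3.29 and 2.41. The order of the group means was Nnm 24 h, Nnm 48 h, control 48 h and control 24 h, with overlap between both Nnm groups and between both control groups.

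PCLO and TENM3 are the 2 of the 4 higher genes with promoter sequence in the RefSeq table used here (GRCh38.p14). The 250 bases before each annotated start are shown because these genes were higher together. PCLO lies on chromosome 7 (chr7:83162885-83163134, minus strand). TENM3 has 2 starts on chromosome 4, a first at chr4:182143713-182143962 and a second at chr4:182448766-182449015, both on the plus strand. All are printed 5′ to 3′ on the strand of the gene, and capitals mark matches to the motifs searched.
PCLO promoter: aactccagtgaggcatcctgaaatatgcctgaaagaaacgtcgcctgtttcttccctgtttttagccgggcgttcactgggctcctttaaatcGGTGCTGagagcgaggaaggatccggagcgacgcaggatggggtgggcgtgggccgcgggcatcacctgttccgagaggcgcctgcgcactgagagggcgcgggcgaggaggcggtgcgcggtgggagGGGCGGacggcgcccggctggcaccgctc
TENM3 promoter, first start: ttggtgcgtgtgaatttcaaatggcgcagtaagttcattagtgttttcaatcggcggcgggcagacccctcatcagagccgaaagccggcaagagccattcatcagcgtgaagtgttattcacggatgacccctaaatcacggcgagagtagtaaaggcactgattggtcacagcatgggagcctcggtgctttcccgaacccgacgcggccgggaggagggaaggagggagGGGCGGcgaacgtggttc
TENM3 promoter, second start: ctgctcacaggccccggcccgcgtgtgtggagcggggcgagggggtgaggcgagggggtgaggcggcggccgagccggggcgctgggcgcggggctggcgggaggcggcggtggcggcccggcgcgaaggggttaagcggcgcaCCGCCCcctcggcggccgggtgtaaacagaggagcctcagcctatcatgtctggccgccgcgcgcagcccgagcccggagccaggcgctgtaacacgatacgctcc
The motifs were the E-box CACGTG, the TATA box TATAAA, the GC box GGGCGG, and CAGCACC and GGACAGC, the cores of the half-sites of the REST repressor element, each on both strands. The GC box occurred once in each of these 3 windows, and in 42.6% of the 35116 promoter windows of the table. CAGCACC occurred once in the PCLO window, on the opposite strand and starting 157 bases before the start, and in 6.16% of all windows. The PCLO window held 26 CG dinucleotides and the TENM3 windows 20 and 35, where the median over all windows was 11. A match is a description of these letters and no evidence of a bound factor.

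NEGR1 encodes a GPI-anchored IgLON protein that regulates adhesion and neurite growth. Its control values were all near the background, at 2.94, 3.00 and 3.06 at 24 h and 3.25, 3.37 and 3.32 at 48 h. With Nnm they were 6.41, 3.77 and 6.76 at 24 h and 7.21, 5.08 and 6.58 at 48 h. No Nnm value overlapped the controls, and replicate 2 was again the lowest, below the filter of 4 at 24 h. The means were 3.00 ± 0.06 and 5.65 ± 1.63 at 24 h (a difference of 2.65, 6.26-fold) and 3.31 ± 0.06 and 6.29 ± 1.09 at 48 h (2.98, 7.88-fold). Without Nnm replicate 2 the differences were 3.59 and 3.58. The sizes depend on how background was subtracted, since the controls lay under 4. The probe set is of the kind whose probes can bind other transcripts (suffix x), and with the mean of the kept NEGR1 probe sets the 48 h difference was 1.94.

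ELMOD1 encodes an ELMO domain protein that activates GTP hydrolysis by ARF family proteins and is known for its role in hair cells of the inner ear. Its control values were 4.91, 4.54 and 4.44 at 24 h and 4.53, 4.90 and 4.16 at 48 h. The Nnm values were 6.08, 6.45 and 6.14 at 24 h and 6.64, 6.99 and 6.43 at 48 h. Here replicate 2 was the highest Nnm array at both times, and the groups did not overlap. The differences were 1.59 at 24 h (4.63 ± 0.25 against 6.22 ± 0.20, 3.02-fold) and 2.16 at 48 h (4.53 ± 0.37 against 6.69 ± 0.28, 4.46-fold). Without Nnm replicate 2 they were 1.48 and 2.01. The control groups of 24 h and 48 h overlapped, as did the Nnm groups.

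CBLN2 encodes cerebellin-2, a secreted synaptic organiser that bridges neurexins to receptors on the facing cell. The control values were 6.59, 6.52 and 6.22 at 24 h and 6.15, 5.93 and 5.73 at 48 h. The Nnm values were 3.94, 4.92 and 2.65 at 24 h and 3.78, 5.26 and 3.87 at 48 h. Each Nnm value was lower than each control value of its time, with replicate 2 the least lowered. The mean was 6.44 ± 0.20 against 3.84 ± 1.14 at 24 h, a difference of -2.61, with the control level 6.09-fold that of Nnm. At 48 h it was 5.94 ± 0.21 against 4.30 ± 0.83, a difference of -1.63, or 3.10-fold. Without Nnm replicate 2 these were -3.15 and -2.11, and 4 of the 6 Nnm values were under 4, so the size is bounded by the background. The promoter window of CBLN2 is set beside those of the higher genes, at chr18:72544343-72544592 on the minus strand, and held none of the 5 motifs and 25 CG dinucleotides. Only 42.6% of all windows hold a GC box, so its absence is common. For DPYSL3, lower with Nnm at 24 h, the window of the first start held 0 GC boxes and that of the second 3.
CBLN2 promoter: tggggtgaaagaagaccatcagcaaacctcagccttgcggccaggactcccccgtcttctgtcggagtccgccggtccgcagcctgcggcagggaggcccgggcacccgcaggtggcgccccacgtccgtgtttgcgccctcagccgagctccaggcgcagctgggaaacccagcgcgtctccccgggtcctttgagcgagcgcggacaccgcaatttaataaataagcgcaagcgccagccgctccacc

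DPYSL3 encodes collapsin response mediator protein 4, which binds actin and tubulin in growth cones and is also found in dividing and migrating cells. Its control 24 h values were 8.89, 8.74 and 9.75, and its Nnm 24 h values 7.90, 7.72 and 8.09. At 48 h the control values were 7.26, 7.29 and 7.76 and the Nnm values 7.57, 7.29 and 7.34. The control 24 h arrays stood above the other 9 arrays. The Nnm 24 h mean was 7.90 ± 0.19 against 9.13 ± 0.55 in control, a difference of -1.22, while at 48 h the means were 7.40 ± 0.15 and 7.43 ± 0.28. Between control groups the 48 h mean was lower by 1.69, so that the 24 h control level was 3.23-fold that of 48 h, and between Nnm groups it was lower by 0.51. With Nnm at 24 h the level thus lay between the control levels of 24 h and 48 h and overlapped the latter. The sign of the 48 h difference of -0.04 was opposite without control 48 h replicate 3 (0.125) and without Nnm 48 h replicate 2 (0.0192).

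RELN encodes reelin. Its values were 3.33, 3.27 and 3.47 in control 24 h and 3.22, 3.22 and 2.80 in Nnm 24 h. In control 48 h they were 4.54, 4.27 and 4.19, and in Nnm 48 h 3.22, 3.51 and 3.21. The control 48 h arrays were the only ones above 4. The control 48 h mean of 4.33 ± 0.19 was 0.98 above control 24 h (3.36 ± 0.10) and 1.02 above Nnm 48 h (3.32 ± 0.17). The other 3 group means lay between 3.08 and 3.36, close to background, where neither their order nor the small difference at 24 h (-0.27, or -0.13 without Nnm 24 h replicate 3) can be read. The RELN window at chr7:103989659-103989908, on the minus strand, is shown for its base composition. It held 43 CG dinucleotides, more than 99.0% of all windows had, with 6 GC boxes and 1 E-box, a motif present in 6.34% of all windows.
RELN promoter: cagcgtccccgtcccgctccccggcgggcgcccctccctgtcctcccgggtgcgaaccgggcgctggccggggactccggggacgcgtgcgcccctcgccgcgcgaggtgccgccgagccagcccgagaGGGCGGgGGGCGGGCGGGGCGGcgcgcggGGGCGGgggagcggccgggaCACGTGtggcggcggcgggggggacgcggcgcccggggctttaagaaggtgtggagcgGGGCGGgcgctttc

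Set beside the control array of the same number, the changes showed how far the replicates differed. For PCLO they were 4.78, 2.76 and 4.83 at 24 h for replicates 1, 2 and 3, and 3.10, 1.07 and 4.04 at 48 h. For TENM3 they were 3.46, 1.67 and 3.24 and then 3.05, 0.24 and 2.34, so that at 48 h replicate 2 had 8.78% of the mean change of the other 2. For NEGR1 they were 3.47, 0.77 and 3.70 and then 3.95, 1.71 and 3.27, and for CBLN2 -2.65, -1.60 and -3.57 and then -2.37, -0.67 and -1.86. In these 4 genes replicate 2 had the smallest change at both times, between 8.78% and 57.5% of the mean of replicates 1 and 3. RELN shared this, with -0.11, -0.04 and -0.67 at 24 h and -1.33, -0.75 and -0.98 at 48 h (11.4% and 65.6%). ELMOD1 was different in this respect, with 1.17, 1.91 and 1.70 at 24 h and 2.11, 2.09 and 2.27 at 48 h. There replicate 2 had 133% and 95.6% of the mean of the others, so the smaller change of that replicate did not extend to each of the 7 genes. DPYSL3 changed by -0.99, -1.01 and -1.66 at 24 h, and at 48 h the differences (0.31, 0.00 and -0.42) did not share a sign.

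**Figure D2:**
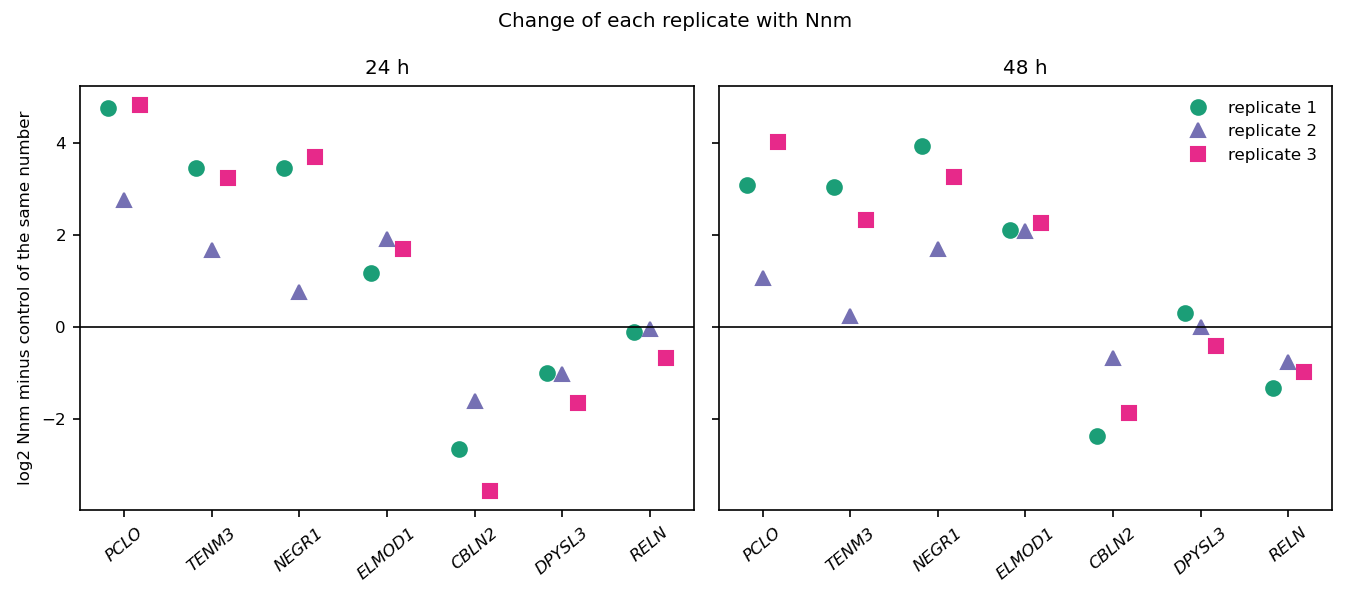
Difference between each Nnm array and the control array of the same replicate number, at 24 h (left) and 48 h (right), on the log2 scale for each of the 7 genes. Replicate 2 (triangles) lies closest to 0 for PCLO, TENM3, NEGR1, CBLN2 and RELN at both times. For ELMOD1 it is the highest at 24 h (1.91) and close to the others at 48 h (2.09, against 2.11 and 2.27).

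The other probe sets of these genes showed how much of each pattern rests on a single probe set. Of the 17 probe sets, 10 passed the filter, at least 1 for each gene, and the other 7 never read above 3.94. PCLO had a second probe set with differences of 3.47 at 24 h and 2.69 at 48 h, without overlap, and another that stayed between 2.24 and 2.27. DPYSL3 had a second with -1.54 at 24 h, -0.25 at 48 h and -2.11 between the control groups. NEGR1 had a second that passed the filter, with 4.16, 2.58 and 4.02 with Nnm at 24 h against 2.51 to 2.58 in control, and 4.89, 2.64 and 2.90 at 48 h against 2.56 to 2.58. On that probe set replicate 2 was within or just above the control values. At 48 h replicate 3 (2.90) was also little above them, so the mean difference of 0.91 there rested largely on replicate 1 (4.89). TENM3, ELMOD1, CBLN2 and RELN each rested on 1 probe set. The remaining 2 of TENM3 stayed at or below 2.21 and the remaining 1 of ELMOD1 at or below 2.16 on every array, and such flat values at the floor say nothing of the transcript they were designed for. Which exons each probe set covers was not analysed here.

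**Figure D3:**
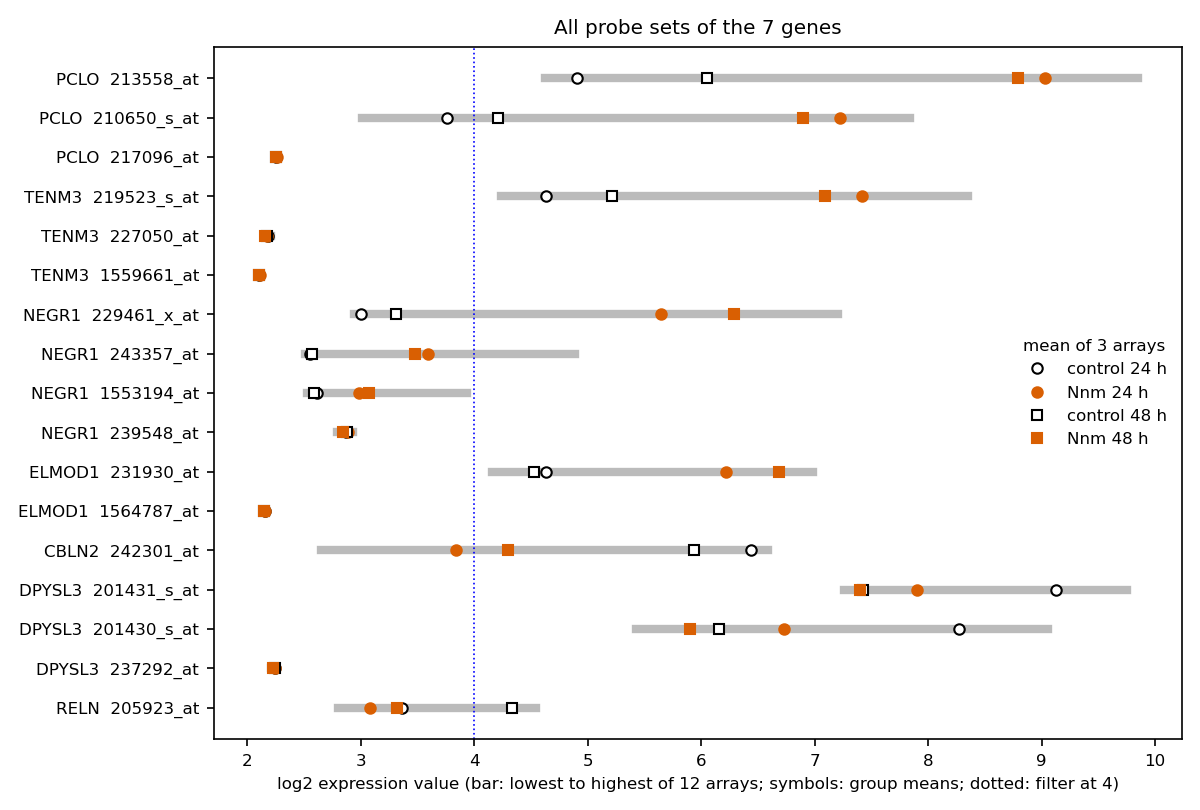
All 17 probe sets of the 7 genes. Grey bars run from the lowest to the highest of the 12 log2 values, symbols give the 4 group means and the dotted line the filter at 4. Each of PCLO, NEGR1 and DPYSL3 has 2 probe sets that pass the filter and order the Nnm and control groups alike at 24 h, and 7 probe sets stay below 4.

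The difference between the effects of Nnm at 48 h and at 24 h was -1.39 for PCLO, -0.91 for TENM3, 0.33 for NEGR1, 0.57 for ELMOD1 and 0.98 for CBLN2. These values depended on single arrays. Leaving out 1 array at a time, PCLO ran from -2.01 (without Nnm 24 h replicate 2) to -0.73 (without Nnm 48 h replicate 2), and TENM3 from -1.41 to -0.38 without the same 2 arrays. TENM3 was at -0.45 without Nnm 24 h replicate 1. NEGR1 ran from -0.61 to 0.93 without the same 2 arrays, and was at 0.71 and 0.89 without Nnm 24 h replicates 1 and 3 and at -0.13 and 0.19 without Nnm 48 h replicates 1 and 3, so it had no settled sign. CBLN2 ran from 0.38 (without Nnm 24 h replicate 3) to 1.52 (without Nnm 24 h replicate 2), and was at 0.50 without Nnm 48 h replicate 2. For DPYSL3 and RELN it was 1.18 and -0.75, and in both the control mean moved further between the times than the Nnm mean did. The same held for PCLO and TENM3, and narrowly for CBLN2 (-0.51 in control, 0.47 with Nnm). Over all 10907 genes limma called 0 for this difference (0% of those tested), with 698 at an unadjusted p under 0.05. Fitting the replicate number as a block gave 2 (0.0183%).

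The genes most like each of the 7 over the 12 arrays were found by the root mean square difference of their values, each gene centred on its own mean. This is a description, and the arrays share their groups and their replicate numbers. C5AR1, the receptor of complement fragment C5a, came closest to PCLO at 0.433, followed by GAS1 at 0.606 and KDM7A at 0.64. GAS1, a growth arrest protein of the cell surface, was also the closest to NEGR1 at 0.324, ahead of the calpain CAPN5 (0.402) and the choline transporter SLC44A2 (0.436). Those closest to TENM3 were KLHL14 (0.344), GKAP1 (0.367) and VAMP1 (0.378), a vesicle protein of the synaptic release machinery. For ELMOD1 they were NR2F1-AS1 (0.349), the iron exporter SLC40A1 (0.358) and the arrestin ARRDC3 (0.371). DNAJC30 (0.422), B3GALT6 (0.428) and LINC00472 (0.435) were closest to CBLN2. FABP5 (0.241), SMTN (0.301) and TM4SF1 (0.332) were closest to DPYSL3, among them the fatty acid binding protein FABP5, which had means of 10.3 in control 24 h, 9.21 in Nnm 24 h, 9.03 in control 48 h and 8.97 in Nnm 48 h. GPR143 (0.188), HSBP1L1 (0.214) and GCAT (0.225) were closest to RELN, and a low value there follows in part from the small range of RELN.

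To describe the partners and relatives of these genes, 155 genes of their families and pathways were listed, of which 144 had a probe set and 72 passed the filter. At 24 h 7 of the 72 rose and 5 fell (limma, adjusted p under 0.05), 16.7% against 19.4% of all genes (10.6% higher and 8.85% lower). At 48 h 4 rose and 5 fell, 12.5% against 13.8% (8.45% higher and 5.34% lower). Their median difference was 0.157 at 24 h and 0.07 at 48 h, against 0.01 and 0.02 over all genes. With the replicate block 38 of the 72 passed at 24 h (52.8%, against 38.8% of all genes) and 19 at 48 h (26.4%, against 32.2%), so the share lay below the background without the block at both times, and above it at 24 h and below it at 48 h with the block. The counts of the separate lists below are without the block, and more of their genes may pass with it. Between the control groups limma called 0 of the 72 (11 at an unadjusted p under 0.05, and 5 with the block), where 0.0825% of all genes were called higher and 0.0458% lower, 0.128% together, or 8.47% with the block, and for the difference between times also 0 (5 unadjusted, 0 with the block).

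**Figure D4:**
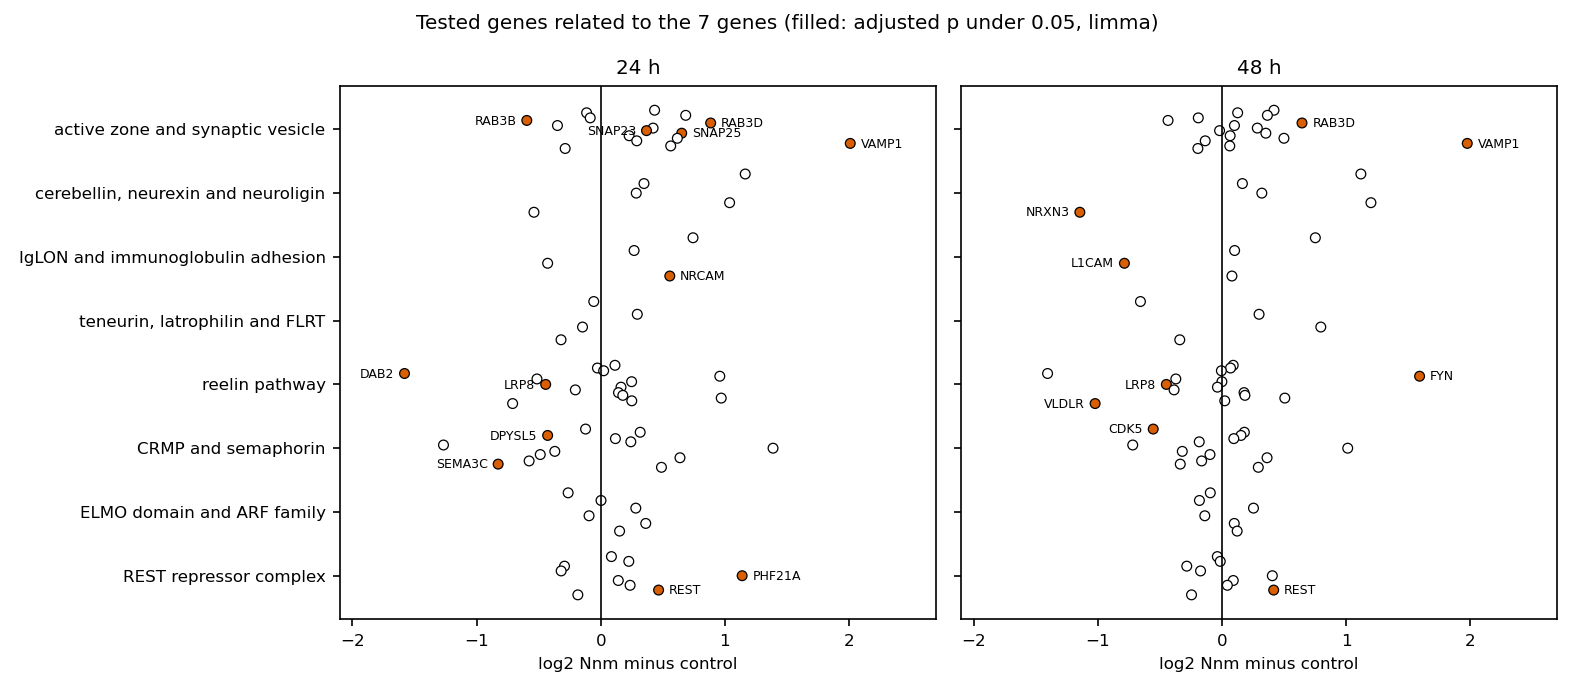
Difference between Nnm and control (log2, horizontal axis) of the 72 tested related genes at 24 h (left) and 48 h (right), by list of family or pathway. Filled points passed an adjusted p under 0.05 (limma) and carry their symbol. VAMP1, RAB3D, LRP8 and REST are filled at both times, and 12 points are filled at 24 h and 9 at 48 h.

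Among 16 tested genes of the active zone and the synaptic vesicle, listed with PCLO, 4 rose and 1 fell at 24 h (31.2%, against 19.4% of all genes), and 2 rose at 48 h (12.5%, against 13.8%), with medians of 0.40 and 0.11 over the list. VAMP1 had the largest change, from 3.68 ± 0.43 to 5.69 ± 1.08 at 24 h (2.01, adjusted p = 0.0327, limma) and by 1.98 at 48 h (adjusted p = 0.0423). Its control means were under 4 at both times (3.68 and 3.72), so it could pass the filter only with Nnm arrays counted. Its p-values and its part in the shares of this list are therefore tilted towards a rise. RAB3D, a vesicle GTPase of secretory cells, rose by 0.89 at 24 h (adjusted p = 0.0112) and 0.65 at 48 h (adjusted p = 0.0375), neither of which passed with the mean of its probe sets (adjusted p = 0.127 and 0.157). RAB3B fell by 0.60 at 24 h (adjusted p = 0.0188), and at 48 h it was at -0.43 (adjusted p = 0.0636, or 0.0473 with the block). The other 2 that rose at 24 h were SNAP25 (0.65) and SNAP23 (0.37), named here after their values were seen. BSN, the closest relative of PCLO in function, stayed at or below 1.73 on every array, as did the synapsins SYN1, SYN2 and SYN3 at or below 2.47.

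The partners of the adhesion genes behaved differently from one another. NRXN3, the neurexin that passed the filter and a receptor of cerebellins, went from 6.01 to 4.87 at 48 h, a fall of 1.14 (adjusted p = 0.0124, limma), and was at -0.54 at 24 h (adjusted p = 0.105, or 0.0436 with the block). It was the only 1 of 5 tested genes listed with CBLN2 that passed at 48 h (20.0%, against 13.8% of all genes), and none did at 24 h (2 at an unadjusted p under 0.05). The medians of these 5 genes were 0.35 and 0.32 at 24 h and 48 h. CBLN1, CBLN3 and CBLN4 stayed at or below 2.47. Among the genes listed with NEGR1, the other IgLON genes LSAMP, OPCML, NTM and IGLON5 stayed at or below 2.91. Of the 4 tested adhesion genes on that list NRCAM rose by 0.56 at 24 h (adjusted p = 0.0182, or 0.0544 with the mean of its probe sets). L1CAM fell by 0.79 at 48 h (adjusted p = 0.0396) and at 24 h passed only with the block (-0.43, adjusted p = 0.0124). None of the 4 tested genes listed with TENM3 (teneurins, latrophilins and FLRT genes) passed, with 0 and 1 at an unadjusted p under 0.05 (24 h and 48 h). TENM4 was at -0.32 and -0.34 (adjusted p = 0.233 and 0.231), and the latrophilin ADGRL1 at -0.06 and -0.66 (adjusted p = 0.878 and 0.069, the latter 0.0181 with the block). TENM1, TENM2, ADGRL2 and ADGRL3 did not pass the filter.

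Both reelin receptors were measured. LRP8 fell by 0.44 at 24 h (8.33 ± 0.02 to 7.89 ± 0.11, adjusted p = 0.0348, limma) and by 0.45 at 48 h (adjusted p = 0.0413). With the mean of its probe sets LRP8 was at -0.74 and -1.05. VLDLR fell by 1.02 at 48 h (adjusted p = 0.0196) and was at -0.71 at 24 h (adjusted p = 0.0537, or 0.0301 with the block). DAB1, the adaptor through which reelin signals, stayed at or below 2.05, while DAB2, its relative in endocytosis, fell by 1.58 at 24 h (adjusted p = 0.0306) and was at -1.40 at 48 h (adjusted p = 0.055, or 0.0167 with the block). The kinase FYN rose by 1.59 at 48 h (adjusted p = 0.0415). In all 2 of 15 tested genes of this pathway fell at 24 h (13.3%, against 19.4% of all genes), and 1 rose and 2 fell at 48 h (20.0%, against 13.8%), with medians of 0.12 and 0.00.

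Over the 13 tested genes listed with DPYSL3 (collapsin response mediators, semaphorins and their receptors and kinases), the medians were -0.12 and -0.10 at 24 h and 48 h. Of these genes 2 fell at 24 h (15.4%, against 19.4% of all genes in either direction and 8.85% lower) and 1 at 48 h (7.69%, against 13.8% and 5.34%). At 24 h these were the semaphorin SEMA3C (-0.83, adjusted p = 0.0214, limma) and DPYSL5 (-0.43, adjusted p = 0.0388), and at 48 h the kinase CDK5 (-0.55, adjusted p = 0.036). With the mean of its probe sets DPYSL5 was at -0.72 at 24 h, and at 48 h, where it did not pass with either choice, it turned from 0.15 to -0.32. DPYSL2 was at 0.32 and 0.18 (adjusted p = 0.0558 and 0.261, the former 0.027 with the block), and CRMP1 and DPYSL4 stayed at or below 2.52. None of the 6 tested genes listed with ELMOD1 (ELMO domain and ARF family genes and partners) passed at either time (2 and 1 at an unadjusted p under 0.05). ELMOD2 was at 0.15 and 0.12 (adjusted p = 0.417 and 0.543), and ELMOD3 stayed at or below 3.60. REST, the repressor that keeps neuronal genes silent outside the nervous system, rose by 0.47 at 24 h (adjusted p = 0.0204, limma) and 0.42 at 48 h (adjusted p = 0.0355). With the mean of its probe sets REST was at 0.24 and 0.12 and did not pass (adjusted p = 0.169 and 0.513). Of 9 tested genes of its complex PHF21A also rose, by 1.14 at 24 h (adjusted p = 0.0339), and was at 0.41 at 48 h (adjusted p = 0.418), which makes 22.2% and 11.1% of this list against 19.4% and 13.8% of all genes.

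The 19 calls of the related genes named by rule were each lost without at least 1 array. RAB3D at 24 h was lost without control 24 h replicate 3 (adjusted p = 0.0543, limma) and NRXN3 at 48 h without Nnm 48 h replicate 1 (adjusted p = 0.0552), each in that case alone. The other 17 were lost without 4 to 8 arrays, with adjusted p of up to 0.158 (VAMP1 at 48 h without Nnm 48 h replicate 1). The count at 24 h was 0 of 72 without control 24 h replicate 3 and 22 without Nnm 24 h replicate 2, and at 48 h 0 without Nnm 48 h replicate 1 and 12 without Nnm 48 h replicate 2.

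The summed log2 value over the 20 neuronal markers ran from 116.7 to 119.4 in control 24 h, 117.1 to 117.9 in Nnm 24 h, 112.3 to 116.1 in control 48 h and 114.3 to 116.2 in Nnm 48 h. Of the 12 tested, 2 rose and 2 fell at 24 h (33.3%, against 19.4% of all genes), and 1 rose and 1 fell at 48 h (16.7%, against 13.8%). MAP2, a microtubule protein of dendrites, rose from 6.73 to 8.79 at 24 h (adjusted p = 0.0131, limma) and from 6.01 to 8.32 at 48 h, while the neurofilament NEFL fell by 1.49 and 1.26, and both are named after their values were seen. Proximal tubule markers summed to 73.47 to 74.74 and 74.18 to 77.03 in control and Nnm at 24 h, and to 74.93 to 76.24 and 79.07 to 80.41 at 48 h. Of the 4 tested, 2 rose and 0 fell at each time (50%, against 19.4% of all genes at 24 h and 13.8% at 48 h). DPP4 rose at both times (0.77 and 1.19). PAX8 rose at 24 h (0.65) and was at 0.61 at 48 h (adjusted p = 0.0599, limma). CDH6 was at 0.06 at 24 h and rose at 48 h (1.38). SLC3A1 passed at neither time (-0.22 and 0.58). Of the markers of other cell types, 1 of 4 glial, 3 of 6 fibroblast, 1 of 4 endothelial and 0 of 2 leukocyte genes passed the filter. COL1A1 fell by 0.53 at 48 h (adjusted p = 0.0491, limma), and no other gene of these lists passed the test at either time. The part of such cells in the values of the 7 genes was not tested. On bulk arrays a change in the share of cells that express a gene and a change in the level per cell cannot be told apart.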

How the data were processed

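Expression was measured on 12 Affymetrix arrays of HK-2 cells, from total RNA made into biotin-labelled cRNA. The deposited log2 values of 54675 probe sets were made by the authors with GCRMA, per the submitters' processing notes; the sources used here do not give its version or which arrays were normalised together. The log base was read from the range of values. Probe sets were named from the platform annotation (41097 with 1 symbol, 1801 with several, 11777 not listed there), and 41043 gene IDs were found in the RefSeq table of GRCh38.p14, which changed 0 symbols. Promoter windows came from the same RefSeq build.

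Probe sets with 1 symbol and a log2 above 4 on at least 3 arrays were kept, and each gene was taken from its brightest one (10907 genes). The tests used limma 3.58.1 (R 4.3.3) over all 12 arrays, adjusted by Benjamini and Hochberg over all genes at a threshold of 0.05, with no block. Same-numbered arrays had residual correlations of 0.318 to 0.696 (18 pairs) and other pairs -0.587 to 0.119, so the numbers pair the arrays. The blocked value stands beside the totals and beside a related gene named by rule where it changes the call. For the counts of the separate related lists and of the marker lists no blocked value is given, and these could differ with the block. Folds and SDs of the 7 genes were computed from the deposited values. The 7 genes, the related lists and the alternatives were chosen with earlier results of these data known. Named related genes are up to 3 of each list with the smallest p among those called at each time, the direct partners tested, and REST. Likeness took the 3 nearest genes. Tests were checked on simulated data. Alternatives changed the filter, the choice of probe set, the scaling, array weights, the moderation, the block, the groups fitted and the arrays left out. Plots were drawn with matplotlib 3.10.9.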

Additional observations from a re-analysis of the deposited data

How the results depend on the processing

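Numbers of genes called were sensitive to the fit. Of 605 differences of the 7 genes under the alternatives, 601 moved by less than 1 SD between replicates. The other 4 were NEGR1 with the mean of probe sets (1.94 at 48 h and 0.167 between the control groups), and CBLN2 (-3.51) and RELN (-0.467) at 24 h with array weights. Many of the 605 could not move further. The moderation, the block and the groups fitted leave a difference of group means as it was, as does leaving out an array of another group. Leaving out 1 of 3 arrays moves a comparison of 2 groups by less than that SD. The count of 601 therefore does not show that the differences are stable. Over all genes tested (24 h, 48 h, difference between times, control groups) the numbers called were 2116, 1504, 0 and 14 as planned. They were 1272, 879, 1 and 6 with no filter (19775 genes), 4864, 3468, 37 and 92 with array weights, and 4237, 3515, 2 and 924 with the replicate block. Without both Nnm replicate 2 arrays they were 3703, 3156, 36 and 63. With only the groups compared they were 837, 514 and 4 (24 h, 48 h and control groups), and with the mean of probe sets 1 for the difference and 8 for the control groups. Leaving out 1 array at a time gave 404 to 3248, 267 to 2403, 0 to 17 and 3 to 27. The highest came without the Nnm replicate 2 array of that time (of 24 h for the last 2), and the lowest without control 24 h replicate 3 and Nnm 48 h replicate 1 for the first 2. For related genes the planned 12 and 9 (24 h and 48 h) were 6 and 2 with no filter, 38 and 20 with array weights, 38 and 19 with the replicate block (5 between control groups), 2 and 2 with only the groups compared, and 24 and 17 without both Nnm replicate 2 arrays. Leaving out 1 array gave 0 to 22 and 0 to 12. The cause of these moves was not tested. The 19 calls of named related genes gave 417 outcomes, of which 286 passed again, 131 did not and 0 turned sign. The block ended none of the 19. Where these genes had not passed, 39 of 417 outcomes passed and 5 turned sign (NRCAM at 48 h 3 times, DPYSL5 at 48 h, ADGRL1 at 24 h). With the stricter filter, repeated quantile normalisation, median centring and moderation with trend and robust settings, all 8 numbers stayed within 1.5 times. RELN at both times and NEGR1, CBLN2 and VAMP1 lie near background in at least 1 group, which limits what their sizes show.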
